A study of Mus musculus with 10 samples.

Results

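Mucin-type O-glycans were followed through the RNA of 10 genes that encode enzymes of their synthesis in colonic intestinal epithelial cells (IECs). The genes were Galnt3, Galnt12, C1galt1, B3gnt6, Gcnt1, Gcnt3, B3gnt7, Fut2, St3gal4 and B4galnt2, chosen by name from the 55487 genes of the deposited table. IECs came from the colon of 5 WT and 5 RhoB-/- mice, with 1 library per mouse and no treatment named for either group in the labels. All mice were C57BL/6J by label and were used at 6 to 8 weeks of age unless stated otherwise. The RhoB-/- mice lack the small GTPase RhoB in the whole body, so effects from outside the epithelium cannot be told apart from those within it. The WT mice were purchased males, whereas the knockout line was made at another centre and the sex of the knockout mice used here was not given, so source and genotype cannot be told apart. Epithelium was released from the colon with EDTA and DTT, and no further sort was applied. Every value is a TPM, a share of a library's transcripts that is corrected for transcript length and scaled to a fixed total in each library, so levels can be compared between genes but the reads behind a value are unknown.

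In colonic mucus, goblet cells secrete Muc2, whose long serine- and threonine-rich stretches are covered with O-glycans, while absorptive cells carry transmembrane mucins such as Muc13 and Muc3 on their surface. Synthesis starts in the Golgi, where a GalNAc-transferase places GalNAc on serine or threonine. Galactose or GlcNAc added to that GalNAc then makes core 1 or core 3, a GlcNAc branch turns these into core 2 or core 4, the branches are lengthened with galactose and GlcNAc, and fucose, sialic acid, GalNAc or sulfate closes the chain. Core 3 and core 4 structures are typical of the gut, and the terminal sugars serve as binding sites and food for bacteria of the mucus.

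The targeted gene checks the labels. Rhob (ENSMUSG00000054364, chromosome 12, 8497661 to 8500009) had 171, 303, 365, 333 and 389 TPM in the WT libraries and 0.09, 0.10, 0.35, 0.57 and 111 TPM in the RhoB-/- libraries. The library labelled RhoB-/- replicate 5 thus kept part of the Rhob signal, and calls that are lost without it are named. Genes detected numbered 20394 to 21344 per WT library and 20261 to 20594 per RhoB-/- library, and mitochondrially encoded genes took 17.5% to 26.5% and 10.3% to 22.4% of the TPM.

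Of the 10 enzyme genes, 5 had higher RNA levels in RhoB-/- mice (Fut2, Gcnt1, Gcnt3, St3gal4 and B4galnt2), 2 were lower (B3gnt6 and B3gnt7) and 3 did not pass the test (C1galt1, Galnt3 and Galnt12). The test was limma on log2(TPM + 1) over 12870 genes that averaged 1 TPM or more, all 10 enzymes among them, and a gene passed at a Benjamini-Hochberg adjusted p below 0.05. Across all tested genes 7.73% were higher and 13.5% were lower by the same rule. The thresholds of the study, a fold change above 1.5 with p below 0.05 before adjustment, were applied to this limma fit of log2(TPM + 1). By them 3 of the 10 were higher (Fut2, Gcnt3 and St3gal4) and 2 were lower, against 6.37% and 8.33% of all tested genes. Gcnt1 missed the fold threshold on that scale (log2 fold change 0.53 against 0.585), while its ratio of mean TPM was 1.57. The RhoB-/- values lay above every WT value for 3 of the 10 (Fut2, Gcnt3 and St3gal4) and below every WT value for 1 (B3gnt7), against 5.97% and 8.55% of all tested genes. The median log2 fold change of the 10 was 0.43, against -0.13 over all tested genes, so a log2 fold change of 0 lies slightly above the typical gene. The genes were picked with earlier results of these data known, so these counts describe the 10 enzymes and test nothing about them as a set. Without the library labelled RhoB-/- replicate 5, 4 were higher and 2 were lower, B4galnt2 no longer passing. Without WT replicate 1 or 3 or RhoB-/- replicate 1 or 4, 3 were higher and 2 were lower, neither Gcnt1 nor B4galnt2 passing.

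**Figure D1:**
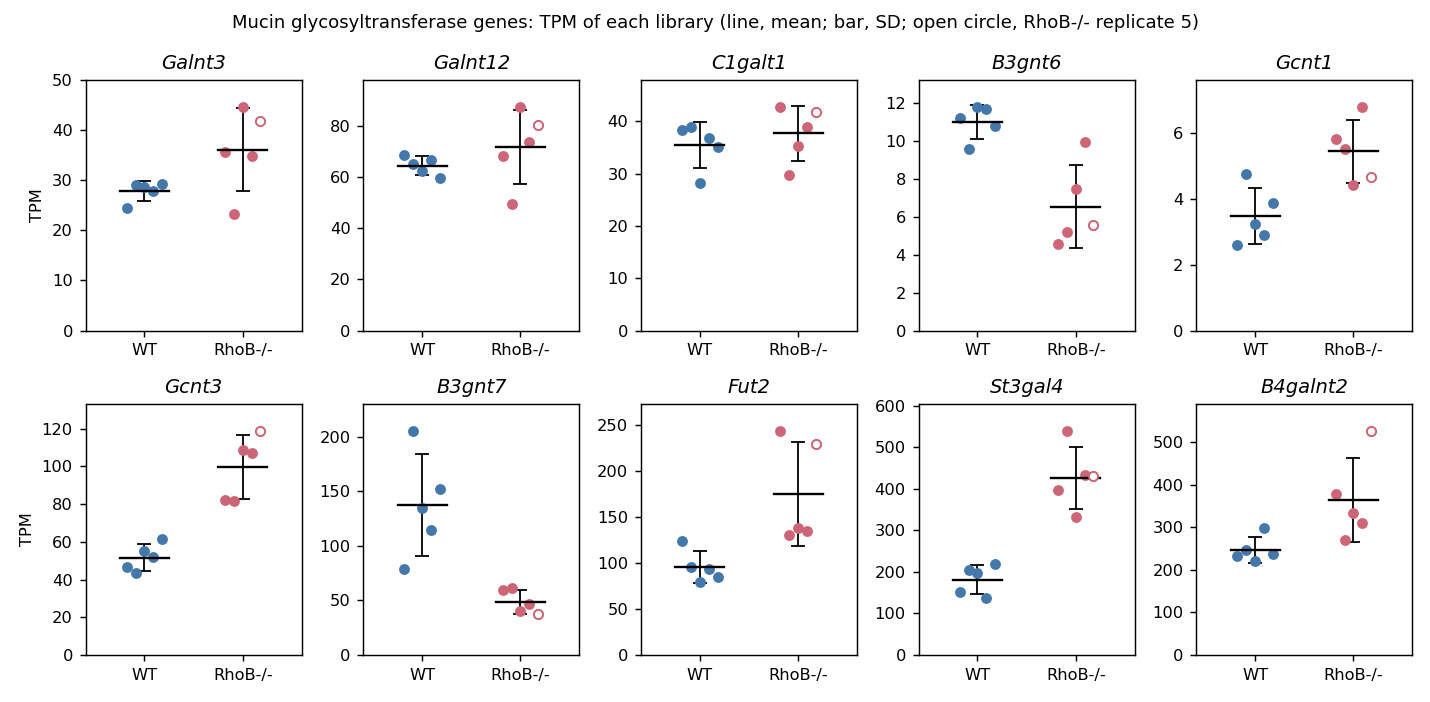
TPM (y axis, linear, starting at 0) of the 10 enzyme genes in each of 5 WT and 5 RhoB-/- libraries; points are libraries, the open circle is the library labelled RhoB-/- replicate 5, lines are means and bars SD. The groups are apart for Gcnt3, B3gnt7, Fut2 and St3gal4 and overlap for the other 6 genes.

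The start of a gene was at hand for 6 of the 10 enzymes in RefSeq's promoter table (GRCm38.p6), with 8 windows of 250 bases before a transcription start. Fut2, B3gnt6, Gcnt3 and Galnt12 were not matched. A window is shown for each of the 3 matched genes that rose, because these windows differ in make-up. Gcnt1 has 3 windows in the table, of which the one at its outermost start is shown. Each is written 5′ to 3′ on the strand of its gene. Capitals mark matches on either strand to 3 motifs, which do not overlap in these windows. The GC box was searched as GGGCGG. The core shared by posterior HOX and CDX sites was searched as AATAAA. The TATA box was searched by its letters TATAAA. Bases that an annotated exon covers were left out.
St3gal4 (minus strand, chr9:35116874-35117114): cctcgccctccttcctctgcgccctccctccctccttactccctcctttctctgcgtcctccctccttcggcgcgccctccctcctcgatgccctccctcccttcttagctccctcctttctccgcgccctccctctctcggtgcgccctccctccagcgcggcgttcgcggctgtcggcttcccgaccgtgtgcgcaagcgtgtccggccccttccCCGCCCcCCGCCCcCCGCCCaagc
B4galnt2 (minus strand, chr11:95914892-95915121): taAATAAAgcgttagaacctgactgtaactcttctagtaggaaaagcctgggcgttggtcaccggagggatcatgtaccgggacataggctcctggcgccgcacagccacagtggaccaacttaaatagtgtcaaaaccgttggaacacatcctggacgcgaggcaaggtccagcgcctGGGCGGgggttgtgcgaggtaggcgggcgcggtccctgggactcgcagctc
Gcnt1 (minus strand, chr19:17372845-17373094): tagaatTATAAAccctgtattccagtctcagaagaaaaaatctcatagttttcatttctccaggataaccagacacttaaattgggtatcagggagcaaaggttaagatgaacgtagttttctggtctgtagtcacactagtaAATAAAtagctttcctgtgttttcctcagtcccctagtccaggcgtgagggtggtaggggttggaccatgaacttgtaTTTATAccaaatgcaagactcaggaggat

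The window of St3gal4 was 72.8% G and C and held 3 GC boxes in a row, at positions -33, -26 and -19 from the start. That of B4galnt2 was 58.4% G and C with 1 GC box at -71 and AATAAA at -248. The printed window of Gcnt1 was 40.4% G and C, against a median of 52.4% over all 32851 windows. It held TATAAA at -244 and AATAAA at -107, and at -29 a match to TATAAA on the other strand only, read as TTTATA. The other 2 windows of Gcnt1, at 55.6% and 51.6% G and C, held no match to any motif searched, so this make-up belongs to 1 of its starts. A GC box was in 5 of the 8 windows of the enzymes, with matches also for B3gnt7, Galnt3 and C1galt1, and in 32.7% of all windows. Annotated exons of their own gene cover all 250 bases of the B3gnt7 and C1galt1 windows. For Galnt3 they cover 201 of the 250 bases, including its 3 GC boxes. These matches thus lie inside the annotated gene, and exon cover was not counted over all windows. TATAAA was in 1 of the 8 and 12.4% of all, and AATAAA in 2 of the 8 and 18.1% of all. The STAT motif TTCNNNGAA, present in 7.02% of all windows, and the interferon response core GAAANNGAAA, present in 2.98%, were in none of the 8. These motifs were picked after the expression values were seen, a match is a match of letters only, and a window without one says nothing of the factor.

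The GalNAc-transferases Galnt3 and Galnt12 start the O-glycan by placing GalNAc on the mucin backbone, and neither passed the test. Galnt3 (ENSMUSG00000026994, chromosome 2, 66082766 to 66124994) had 24.4, 29.0, 28.6, 27.9 and 29.3 TPM in WT and 35.6, 23.4, 44.7, 34.9 and 41.9 TPM in RhoB-/- libraries 1 to 5. Of the RhoB-/- libraries, 4 lay above every WT library and replicate 2 lay below them all. Its mean went from 27.9 ± 2.01 to 36.1 ± 8.24 TPM (SD, n = 5 each), with a log2 fold change of 0.33 (SE 0.15, 95% interval -0.0026 to 0.67, adjusted p = 0.139). Without RhoB-/- replicate 2 the log2 fold change was 0.48 with an adjusted p of 0.0119. Scaling also decides this gene, which passed once libraries were centred by their median deviation (0.45, adjusted p = 0.0114) and with quantile normalization (0.33, adjusted p = 0.0315).

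Galnt12 (ENSMUSG00000039774, chromosome 4, 47091909 to 47123070), a family member known for its expression in the digestive tract, had 68.6, 65.1, 62.3, 66.7 and 59.5 TPM in WT and 68.2, 49.4, 87.5, 73.6 and 80.2 TPM in RhoB-/- libraries. The WT libraries lay close together and the RhoB-/- libraries spread on both sides of them, with replicate 2 again the lowest. The log2 fold change was 0.13 (SE 0.14, 95% interval -0.18 to 0.43, adjusted p = 0.529).

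C1galt1 and B3gnt6 act on the same GalNAc. C1galt1, the core 1 galactosyltransferase (ENSMUSG00000042460, chromosome 6, 7844842 to 7875687), had 38.3, 38.8, 28.1, 36.7 and 35.1 TPM in WT and 42.8, 29.8, 35.3, 38.8 and 41.8 TPM in RhoB-/- libraries. The groups covered nearly the same range, and the log2 fold change was 0.08 (SE 0.13, 95% interval -0.19 to 0.36, adjusted p = 0.653). C1galt1c1, the chaperone that C1galt1 needs to fold, averaged 39.2 ± 1.53 and 37.7 ± 7.81 TPM (SD, n = 5 each), a log2 fold change of -0.08 (adjusted p = 0.694).

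B3gnt6, the core 3 synthase (ENSMUSG00000074004, chromosome 7, 98192417 to 98199481), fell. It had 11.2, 9.58, 11.8, 11.7 and 10.8 TPM in WT and 4.57, 5.18, 7.46, 9.92 and 5.57 TPM in RhoB-/- libraries. All RhoB-/- libraries but replicate 4 lay below every WT library, and replicate 4 lay inside the WT range. Mean TPM went from 11.01 ± 0.898 to 6.54 ± 2.18 (SD, n = 5 each), a log2 fold change of -0.71 (SE 0.17, adjusted p = 0.0127).

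The branching enzymes Gcnt1 and Gcnt3 add GlcNAc to the core, and both rose. Gcnt3, the mucin-type enzyme that makes core 2 and core 4 branches (ENSMUSG00000032226, chromosome 9, 70031496 to 70038088), had 46.8, 43.4, 54.9, 51.9 and 61.4 TPM in WT and 82.3, 81.4, 109, 107 and 119 TPM in RhoB-/- libraries. The lowest RhoB-/- library stood clear of the highest WT library. Its mean rose from 51.7 ± 7.01 to 99.7 ± 16.9 TPM (SD, n = 5 each), a log2 fold change of 0.93 (SE 0.14, adjusted p = 8.79e-04).

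Gcnt1, which makes core 2 only (ENSMUSG00000038843, chromosome 19, 17326141 to 17372844), was the lowest of the 10 genes in both groups. Its TPM was 2.60, 4.76, 3.25, 2.91 and 3.87 in WT and 5.82, 5.52, 4.42, 6.80 and 4.67 in RhoB-/- libraries. The groups overlapped, since RhoB-/- replicates 3 and 5 lay below WT replicate 2. The log2 fold change was 0.53 (SE 0.15, adjusted p = 0.0299). With 1 library left out at a time, the call held in 4 of 10 fits and was lost without WT replicate 1, 3 or 4 or RhoB-/- replicate 1, 2 or 4, with a highest adjusted p of 0.0761.

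The chain-extending enzyme fell most. B3gnt7, a GlcNAc-transferase that lengthens lactosamine chains (ENSMUSG00000079445, chromosome 1, 86302832 to 86307305), had 79.0, 205, 134, 114 and 152 TPM in WT and 59.0, 61.0, 39.8, 46.4 and 37.0 TPM in RhoB-/- libraries. WT values spread 2.60-fold between their lowest and highest library, yet all lay above the RhoB-/- values. Mean TPM fell from 137.0 ± 46.8 to 48.7 ± 10.9 (SD, n = 5 each), a ratio of 0.355 and a log2 fold change of -1.43 (SE 0.23, adjusted p = 0.00159). It was -1.35 without the library labelled RhoB-/- replicate 5 (adjusted p = 0.00530).

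The WT libraries with the highest and lowest B3gnt7, replicates 2 and 1, also had the highest and lowest summed TPM of 6 Hox genes that mark the distal colon. That sum was 70.4 to 178.0 TPM in WT (median 98.1) and 20.3 to 49.3 TPM in RhoB-/- libraries (median 38.8), none of the 6 genes having a higher mean in RhoB-/- mice and none being at 0 in all libraries. Hoxb13 fell from 81.3 ± 32.1 to 23.2 ± 8.19 TPM (SD, n = 5 each), a log2 fold change of -1.76 (adjusted p = 0.00113), and Hoxa13 fell by 0.88 on the log2 scale (adjusted p = 0.0171). The third tested gene, Hoxd13, did not pass (log2 fold change -0.91, adjusted p = 0.125), and the other 3 were below the filter. The stretch of colon that each library represents was not recorded in the labels, and its part in the enzyme values was not tested.

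The 3 enzymes that close the chain all rose. Fut2, which adds the fucose of the H antigen (ENSMUSG00000055978, chromosome 7, 45648591 to 45666394), had 124, 96.2, 79.2, 93.0 and 84.9 TPM in WT and 244, 130.4, 138, 135 and 229.8 TPM in RhoB-/- libraries. RhoB-/- replicates 1 and 5 stood well above the other 3, which lay just above the highest WT library. The mean went from 95.5 ± 17.4 to 175.3 ± 56.3 TPM (SD, n = 5 each), a log2 fold change of 0.83 (SE 0.20, adjusted p = 0.0145), and the adjusted p was 0.0368 without the library labelled RhoB-/- replicate 5. The related fucosyltransferase genes beside it on chromosome 7 were below the filter. Sec1 averaged 0.976 TPM in WT and 0.384 TPM in RhoB-/- libraries, and Fut1 averaged 0.558 and 0.518 TPM.

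St3gal4, which caps galactose with sialic acid (ENSMUSG00000032038, chromosome 9, 35046576 to 35119268), had the highest fold change of the 10. Its TPM was 151, 205, 196, 138 and 218 in WT and 398, 539.7, 333, 433 and 430.3 in RhoB-/- libraries. The lowest RhoB-/- library was well above the highest WT library. Its mean rose 2.35-fold, from 181.6 ± 35.0 to 426.9 ± 74.7 TPM (SD, n = 5 each), a log2 fold change of 1.23 (SE 0.16, adjusted p = 3.77e-04). Its exons share 412 bases with a transcript on the other strand, 4930581F22Rik, which averaged 3.37 TPM in WT and 10.1 TPM in RhoB-/- libraries, and although the methods name an orientation mode for the alignment, they do not say whether the library kept strand or the counting used it. B3gnt7 and B4galnt2 also share exon bases with an antisense gene, each with a mean of at most 1.44 TPM.

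B4galnt2, which adds GalNAc to a sialylated galactose and so makes the Sd(a) antigen (ENSMUSG00000013418, chromosome 11, 95865943 to 95914891), was the most abundant of the 10 in WT. It had 232, 247, 219.8, 297 and 236 TPM in WT and 378, 271, 332, 311 and 526 TPM in RhoB-/- libraries. RhoB-/- replicate 2 lay inside the WT range, and replicate 5 was far above the rest. Mean TPM rose from 246.5 ± 29.8 to 363.7 ± 98.6 (SD, n = 5 each), a log2 fold change of 0.53 (SE 0.17, adjusted p = 0.0421). Without the library labelled RhoB-/- replicate 5 it was 0.39 (adjusted p = 0.0711). The call was also lost without WT replicate 1, 2, 3 or 5 or RhoB-/- replicate 1 or 4, with a highest adjusted p of 0.0915.

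**Figure D2:**
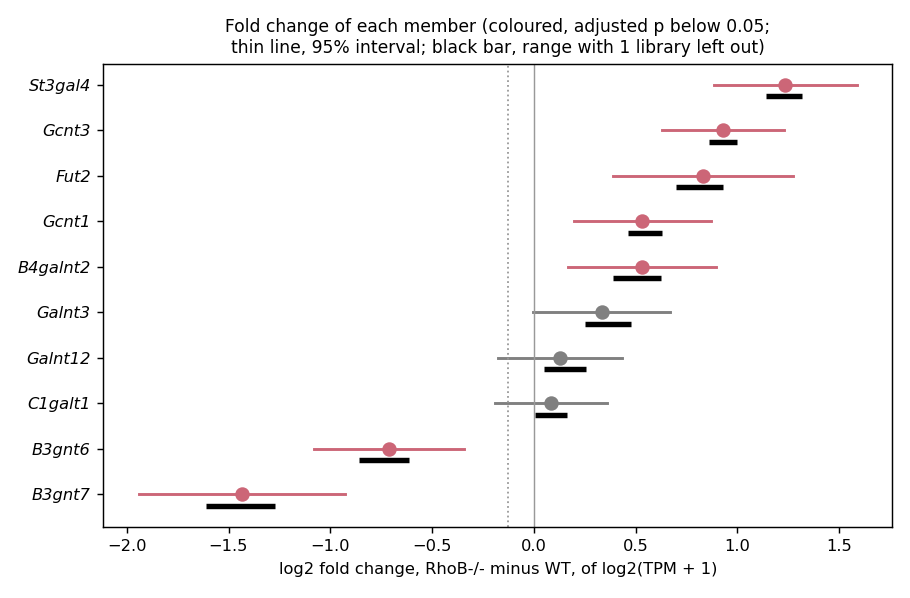
Log2 fold change of each enzyme gene (x axis, RhoB-/- minus WT, of log2(TPM + 1)); points are estimates, coloured at an adjusted p below 0.05, thin lines 95% intervals, black bars the range over 10 fits without 1 library, and the dotted line the median of all tested genes at -0.13. St3gal4 at 1.23 and B3gnt7 at -1.43 lie at the ends, and none of the 10 black bars crosses 0.

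The order of levels also moved. In WT mice B4galnt2, St3gal4, B3gnt7 and Fut2 led, followed by Galnt12, Gcnt3, C1galt1, Galnt3, B3gnt6 and Gcnt1. In RhoB-/- mice St3gal4 led and B3gnt7 moved from the third to the sixth place, behind Fut2, Gcnt3 and Galnt12. Several neighbours in these orders did not differ beyond their spread, with overlapping ranges for St3gal4 and B3gnt7, B3gnt7 and Fut2, Galnt12 and Gcnt3, and C1galt1 and Galnt3 in WT. In RhoB-/- mice the ranges of neighbours overlapped except for B4galnt2 over Fut2, Fut2 over Gcnt3 and Galnt3 over B3gnt6. The summed TPM of the 10 was 777.9 to 943.7 in WT and 1131 to 1516 in RhoB-/- libraries.

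The single RhoB-/- libraries differed in how many enzymes left the WT range. Replicate 4 had 8 enzymes above every WT library and 1 below, but for C1galt1 this was 38.84 TPM against a WT maximum of 38.83 TPM. Replicates 1 and 5 had 7 above and 2 below each, and replicate 3 had 6 above and 2 below. Replicate 2 had 4 above and 4 below, with both GalNAc-transferases among the latter. The share of all genes outside the WT range was not counted per library. These counts thus have no background beside them and cannot be read as particular to the enzymes. The median deviation of all tested genes from their means also differed, at -0.247 in RhoB-/- replicate 2 and 0.102 in replicate 3.

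Plain ratios of 2 enzymes within a library do not depend on the scaling of that library. Medians and ranges are of these plain ratios. The log2 differences are between group means of ratios of TPM + 1, as are their tests, so they keep some dependence on scaling at low TPM. The ratio of C1galt1 to B3gnt6, which compete for the same GalNAc, had a median of 3.26 in WT (2.38 to 4.05) and 5.75 in RhoB-/- libraries (3.92 to 9.36). RhoB-/- replicate 4 was the single library inside the WT range. The log2 difference was 0.80 (exact permutation test, two-sided p = 0.0159, adjusted p = 0.0635 over the 4 ratios tested). The ratio of Galnt3 to Galnt12 had a median of 0.445 in WT and 0.511 in RhoB-/- libraries, a log2 difference of 0.20 (exact p = 0.0317, adjusted p = 0.0635). The exact p of this ratio was 0.0794 without RhoB-/- replicate 1, 3 or 5 and 0.0556 without WT replicate 1.

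The other 2 ratios had a p above 0.05 before adjustment. Gcnt3 over Gcnt1 had a median of 16.9 in WT (9.12 to 17.99) and 15.8 in RhoB-/- libraries (14.1 to 25.4), with a log2 difference of 0.39 (exact p = 0.206, adjusted p = 0.206). With 0.1 in place of the added 1 this difference was 0.29 (exact p = 0.286 before adjustment). The ratio of B3gnt7 to B3gnt6 had a median of 11.4 in WT and 6.65 in RhoB-/- libraries, with a log2 difference of -0.72 (exact p = 0.0873, adjusted p = 0.116). Without RhoB-/- replicate 1 its log2 difference was -0.90 (exact p = 0.0476 before adjustment). None of the 4 ratios passed after adjustment, and 5 against 5 libraries allow no p below 0.00794.

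**Figure D3:**
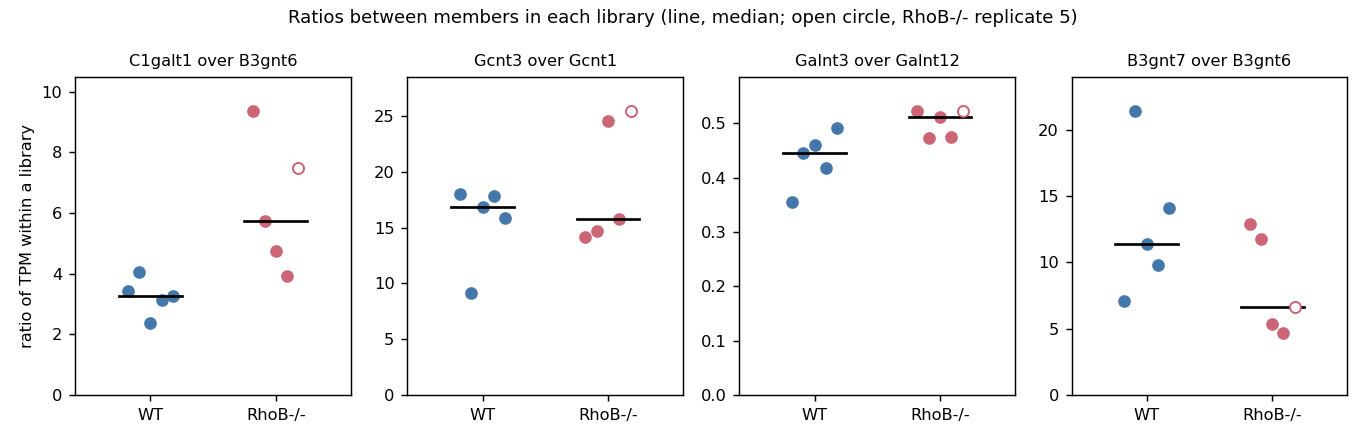
Ratio of the TPM of 2 enzymes within each library (y axis, linear, starting at 0) for 4 pairs; points are 5 WT and 5 RhoB-/- libraries, the open circle is the library labelled RhoB-/- replicate 5 and lines are medians. The median of C1galt1 over B3gnt6 is 3.26 in WT and 5.75 in RhoB-/- libraries, and the groups overlap in all 4 pairs.

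The other genes of the pathway were taken from lists of 112 symbols, of which 74 gene rows were tested. Among these 10 were higher, 13 were lower and 51 did not pass, with a median log2 fold change of -0.16. These include 8 mucins, the substrates, of which 4 were higher and 0 lower, so among the 66 enzyme and sugar supply genes 6 were higher and 13 were lower, with a median of -0.18. Without the library labelled RhoB-/- replicate 5 the counts with the mucins included were 9 higher and 7 lower. The lower count was also 5 without WT replicate 2 or 4, 7 without RhoB-/- replicate 1 or 4, and 20 without RhoB-/- replicate 3. The lists below leave out the 10 enzymes, and their counts stand beside 7.73% higher and 13.5% lower of all tested genes.

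The other GalNAc-transferases, 9 tested, gave 0 higher and 3 lower, with a median log2 fold change of -0.28. Galnt7, which prefers a backbone that already carries GalNAc, fell from 60.7 ± 8.38 to 44.6 ± 3.22 TPM (SD, n = 5 each), a log2 fold change of -0.43 (adjusted p = 0.0206). Galnt11 and Galnt2 had log2 fold changes of -0.37 (adjusted p = 0.0246) and -0.54 (adjusted p = 0.0456). These calls depended on single libraries, Galnt7 passing in 8, Galnt11 in 6 and Galnt2 in 1 of the 10 fits without 1 library. Galnt7 was lost without WT replicate 2 or 4, Galnt11 without either of these or RhoB-/- replicate 1 or 4, and Galnt2 without any library except RhoB-/- replicate 3, with an adjusted p of 0.0678 without the library labelled RhoB-/- replicate 5.

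Among 12 other chain-extending and branching genes 4 rose and 1 fell, and without the library labelled RhoB-/- replicate 5 B3gnt3 (adjusted p = 0.0954) and B3gnt5 (adjusted p = 0.0910) no longer passed. Gcnt2, the enzyme of the I branch, rose from 2.42 ± 0.794 to 9.44 ± 2.70 TPM (SD, n = 5 each), with 1.69 to 3.47 TPM in WT and 6.85 to 14.0 TPM in RhoB-/- libraries (adjusted p = 2.14e-04). B4galt5, a galactosyltransferase that also makes lactosylceramide, rose from 11.3 ± 1.73 to 29.3 ± 2.76 TPM (SD, n = 5 each), a log2 fold change of 1.31 (SE 0.11, adjusted p = 1.49e-05). B4galt1, which adds galactose to GlcNAc, rose by 0.88 on the log2 scale (adjusted p = 0.0186). Of the genes of this step, B3gnt7 had the lowest and Gcnt2 the highest log2 fold change.

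Of 3 tested fucosyltransferases Fut2 rose and the other 2 fell. Fut4, which adds the fucose of Lewis x, fell from 22.2 ± 5.99 to 12.3 ± 2.06 TPM (SD, n = 5 each), a log2 fold change of -0.78 (adjusted p = 0.00901). Fut8, which fucosylates the core of N-glycans, fell by 0.38 on that scale (adjusted p = 0.0493) and passed in 3 of the 10 fits without 1 library. It was lost without WT replicate 2, 4 or 5 or any RhoB-/- replicate but 3, with an adjusted p of 0.111 without the library labelled RhoB-/- replicate 5. All 6 remaining fucosyltransferase genes were below the filter.

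Among 8 other sialyltransferase rows 1 rose and 2 fell. St3gal1, which caps core 1 with sialic acid, rose from 5.77 ± 1.56 to 16.8 ± 6.81 TPM (SD, n = 5 each), a log2 fold change of 1.35 (SE 0.23, adjusted p = 0.00224). St6gal1, which sialylates N-glycans at another position, fell from 19.9 ± 3.75 to 9.37 ± 2.54 TPM (SD, n = 5 each), a log2 fold change of -1.03 (SE 0.17, adjusted p = 0.00188). St6galnac2, which sialylates the first GalNAc, fell from 21.4 ± 3 to 14.0 ± 1.08 TPM (SD, n = 5 each), a log2 fold change of -0.57 (adjusted p = 0.00455). It is listed under 2 overlapping gene identifiers, so its reads may be split.

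B4galnt2 rose while 2 of 6 other terminal transferases fell and 0 rose. B4galnt3, which adds GalNAc to GlcNAc, went from 20.2 ± 8.47 to 9.16 ± 1.003 TPM (SD, n = 5 each), a log2 fold change of -0.99 (adjusted p = 0.00761). Abo, the blood group transferase, fell by 0.67 on the log2 scale (adjusted p = 0.0247) and passed in 6 of the 10 fits without 1 library, lost without WT replicate 2 or 4 or RhoB-/- replicate 1 or 5, with an adjusted p of 0.0594 without the library labelled RhoB-/- replicate 5. Of 3 tested sulfotransferases 1 rose, Gal3st2, which sulfates galactose, from 9.92 ± 3.36 to 20.7 ± 4.62 TPM (SD, n = 5 each), a log2 fold change of 1.03 (adjusted p = 0.00901).

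The supply of activated sugars gave 0 higher and 3 lower of 24 tested genes, with a median log2 fold change of -0.18. Of all tested genes 13.5% were lower and the median was -0.13, so the lower count and the median were near those of all genes. Nans, the sialic acid synthase, fell from 231.1 ± 26.6 to 147.5 ± 25.7 TPM (SD, n = 5 each), a log2 fold change of -0.65 (adjusted p = 0.00583). Slc35a1, the Golgi carrier of activated sialic acid, and the fucose kinase Fcsk had log2 fold changes of -0.34 (adjusted p = 0.0427) and -0.44 (adjusted p = 0.0419), and passed in 2 and 3 of the 10 fits without 1 library. Both were lost without WT replicate 1, 2 or 4 or any RhoB-/- replicate but 3, and Slc35a1 also without WT replicate 5. Without the library labelled RhoB-/- replicate 5 their adjusted p was 0.0776 and 0.0542.

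**Figure D4:**
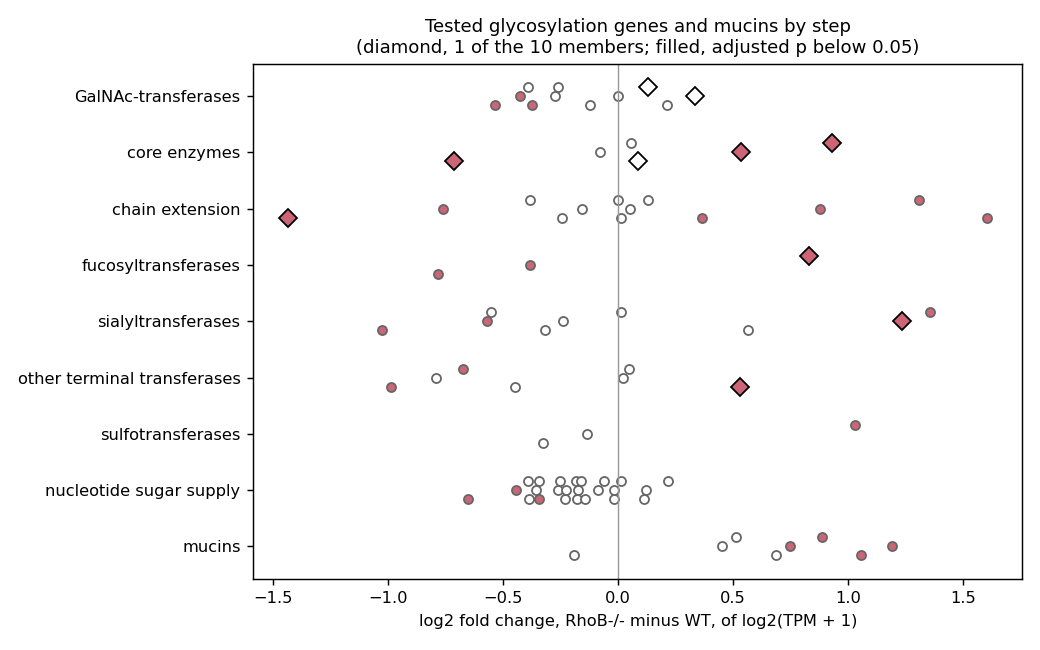
Log2 fold change (x axis, RhoB-/- minus WT, of log2(TPM + 1)) of every tested glycosylation gene and mucin, by step (y axis); diamonds are the 10 enzymes, circles the other genes, and filled symbols have an adjusted p below 0.05. St3gal4 and St3gal1 lie at 1.23 and 1.35 among the sialyltransferases with St6gal1 at -1.03. Of 24 supply genes 0 rose and 3 fell, against 7.73% and 13.5% of all tested genes.

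The mucins that carry these glycans gave 4 higher and 0 lower of 8 tested, with a median log2 fold change of 0.72. Muc2, the secreted mucin, averaged 4981 ± 1239 and 4294 ± 628.6 TPM (SD, n = 5 each) in WT and RhoB-/- mice, with a log2 fold change of -0.19 (95% interval -0.59 to 0.21, adjusted p = 0.474). The transmembrane mucin Muc13 rose from 644.1 ± 140.9 to 1333 ± 260.5 TPM (SD, n = 5 each, adjusted p = 0.00199), and Muc4 from 56.1 ± 4.997 to 134.8 ± 43.2 TPM (SD, n = 5 each, adjusted p = 0.00213). Muc3a rose with a log2 fold change of 0.88 (adjusted p = 0.00255), and since it lies beside the similar gene Muc3, which also rose, their reads may be split.

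Epithelial markers were abundant, at a summed 9032 to 10410 TPM for 6 genes in WT and 8518 to 13440 TPM in RhoB-/- libraries. In bulk RNA, fewer cells of a type and less RNA per cell cannot be told apart. Calls in the marker lists stand beside 7.73% higher and 13.5% lower of all tested genes. The summed TPM of 12 goblet cell markers was 14140 to 16190 in WT (median 15890) and 20230 to 24010 in RhoB-/- libraries (median 22470), with 5 genes higher (Retnlb, Clca1, Spink4, Fcgbp and Ang4), 1 lower (Creb3l1) and none at 0. The 5 higher genes made up the difference, summing to 3508 to 4336 TPM in WT and 10540 to 13740 TPM in RhoB-/- libraries. The other 7, Muc2, Agr2, Zg16, Tff3, Spdef, Atoh1 and Creb3l1, summed to 10530 to 12600 and 9687 to 11870 TPM, a split made by their calls. Spink4 did not pass without the library labelled RhoB-/- replicate 5 (adjusted p = 0.0543). For the 7 markers of absorptive colonocytes the summed TPM was 13990 to 20710 in WT and 16620 to 30620 in RhoB-/- libraries, with 3 higher (Car4, Aqp8 and Krt20) and none lower. Most of this sum was Car1, which averaged 12760 TPM in WT and 17150 TPM in RhoB-/- libraries and did not pass (adjusted p = 0.203). The highest sum was in the library labelled RhoB-/- replicate 5, with 23239 TPM from Car1. That library also had the highest B4galnt2 and Gcnt3.

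Of 10 stem and cycling markers 0 rose and 3 fell, with sums of 267.2 to 351.1 TPM in WT and 142.1 to 340.1 TPM in RhoB-/- libraries. Without the library labelled RhoB-/- replicate 5, Smoc2 passed and Mcm2 and Mki67 did not. Replicate 2, where Galnt3 and Galnt12 were lowest, had the lowest sum. Enteroendocrine markers gave 5 lower of 6, with sums of 418.1 to 589.9 TPM in WT and 169.0 to 271.9 TPM in RhoB-/- libraries, and without that library 4 passed and Chga did not. Immune markers, 9 genes, were low in both groups at 5.81 to 10.8 TPM in WT and 18.02 to 33.4 TPM in RhoB-/- libraries, 4 of the 5 tested being higher. Stromal markers summed to 8.87 to 12.1 TPM in WT and 13.3 to 55.0 TPM in RhoB-/- libraries, the highest sum being that of the library labelled RhoB-/- replicate 5 and the next 27.3 TPM. Of 3 tested stromal markers 2 rose, Dcn and Vim, and Vim did not pass without that library (adjusted p = 0.0754). Tuft cell markers summed to 4.35 to 12.5 and 8.99 to 14.4 TPM, and of 3 tested 2 rose, Trpm5 and Avil, of which Trpm5 did not pass without it (adjusted p = 0.0885). The 7 small intestinal markers summed to 3.83 to 19.5 and 10.2 to 16.8 TPM, with 1 tested and none called. The part of these markers in the enzyme values was not tested.

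**Figure D5:**
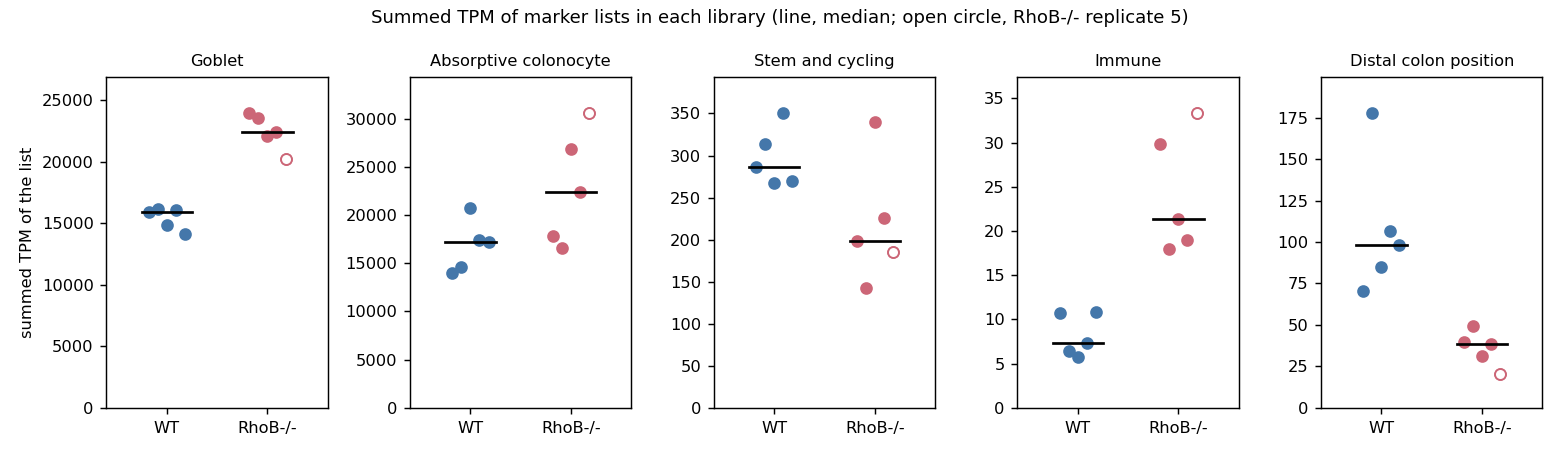
Summed TPM (y axes, linear, starting at 0) of 5 marker lists in each library; points are 5 WT and 5 RhoB-/- libraries, the open circle is the library labelled RhoB-/- replicate 5 and lines are medians. The goblet and immune sums lie higher and the distal colon sum lower in every RhoB-/- library than in every WT library, the goblet difference coming from 5 of its 12 genes.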

How the data were processed

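The authors sequenced colonic IEC RNA of 5 WT and 5 RhoB-/- mice. Paired reads were trimmed (SeqPrep, Sickle), aligned (HISAT2) and assembled (StringTie), and gene levels came from RSEM. The submitters' processing notes also name edgeR and the build GRCm38.p6, and tool versions and the annotation release were not given in the sources used here. The deposited values are TPM, given by the authors with 2 decimals. TPM keeps no depth, so counting error is unknown and errors are the spread between mice.

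Samples were grouped by their labels, and all 10 libraries were used. Log2(TPM + 1) was fitted with limma 3.58.1 in R 4.3.3 (lmFit, eBayes with trend) over 12870 genes that averaged 1 TPM or more, with Benjamini-Hochberg adjustment over these genes. Because of the pseudocount, fold changes of weakly expressed genes are understated. Ratios, and genes that failed this filter, were tested by exact permutation, two-sided, over all 252 ways to choose 5 of 10 libraries. The fit was tested on simulated data. The members and gene lists were chosen with earlier results of these data known. All members, up to 3 genes per other list with the largest change at an adjusted p below 0.05, and C1galt1c1, Sec1, Muc2 and Rhob are named, and Fut1, B3gnt3, B3gnt5, Muc3, Hoxa13, Hoxb13, the called marker genes and the overlapping transcript were added after their values were seen. Positions are those of GENCODE M21 on GRCm38, and promoter sequences are from RefSeq. Alternatives were a pseudocount of 0.1, no filter, a mean TPM of at least 5, centred libraries, quantile normalization, mitochondrially encoded genes left out, a replicate block, limma without trend, each library left out, and, added after seeing the data, the study's thresholds and leaving out the library labelled RhoB-/- replicate 5 together with WT replicate 1.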

Additional observations from a re-analysis of the deposited data

Results flagged for a closer look

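Of 62 groups of 5 libraries checked, 3 had a library whose gap to the nearest other library was large for the range of its group (Dixon's test), and chance gives about 3.1. Galnt3 had 24.38 TPM in WT replicate 1, where the next WT library had 27.92 TPM. Rhob had 110.87 TPM in the library labelled RhoB-/- replicate 5, where the next RhoB-/- library had 0.57 TPM. St3gal1 had 28.47 TPM in the library labelled RhoB-/- replicate 5, where the next had 15.83 TPM. No cause was tested for these values.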

How the results depend on the processing

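All 10 enzymes kept the sign of their log2 fold change in each of the 10 fits without 1 library and under each other setting tried. Fut2, B3gnt6, B3gnt7, Gcnt3 and St3gal4 passed in all 10 of those fits and under all 8 other planned settings. Gcnt1 was lost with no filter (adjusted p = 0.0721) and under the replicate block (0.0689), and was not tested at a mean TPM of at least 5. B4galnt2 was lost with no filter (0.0883), quantile normalization (0.0558) and the block (0.0696).

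Without 1 library, 3 to 5 enzymes were higher and 2 lower, 719 to 1154 of all genes were higher and 853 to 2868 lower (853 without WT replicate 4, 950 without WT replicate 2, 985, 2868 and 1116 without RhoB-/- replicates 1, 3 and 5), and 9 to 12 other pathway genes were higher and 5 to 20 lower. In the same fits the ratio of C1galt1 to B3gnt6 had log2 differences of 0.65 to 0.93, Gcnt3 to Gcnt1 0.24 to 0.48, Galnt3 to Galnt12 0.14 to 0.25 and B3gnt7 to B3gnt6 -0.91 to -0.51.

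With no filter, under the replicate block, by the study's thresholds, and without the library labelled RhoB-/- replicate 5 and WT replicate 1 together, 3 enzymes were higher each, and in the last setting 1 was lower, B3gnt6 having an adjusted p of 0.0558. Of all genes, 2010 were higher with centred libraries, 1587 with quantile normalization and 612 without those 2 libraries, while 1104 were lower at a mean TPM of at least 5, 3536 without mitochondrially encoded genes, 1059 under the block and 1072 by the study's thresholds. Of the other pathway genes, 25 were lower without mitochondrially encoded genes and 7 under the block, by the study's thresholds and without those 2 libraries. The median log2 fold change of all tested genes was -0.01 with centred libraries and -0.19 without mitochondrially encoded genes. The cause of these moves was not tested.

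Replicate numbers are shared by the groups, but the mice are different animals. Deviations of same-numbered libraries correlated at -0.0874 to 0.0720, so the numbers do not pair the samples, and in 1 of 5 pairs the libraries correlated best with their own number. With the number as a block, an exact sign-flip test gave log2 differences of 0.80 for C1galt1 to B3gnt6 and 0.20 for Galnt3 to Galnt12, both at p = 0.0625, the smallest it can give.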
